A study of Mus musculus with 6 samples.

Results

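The levels of 9 claudin and tight junction genes of the epidermis were followed across the 6 libraries of the series. They are 5 claudins (Cldn1, Cldn3, Cldn4, Cldn7 and Cldn12), the other membrane proteins Ocln (occludin) and F11r (junctional adhesion molecule A), and the scaffold genes Tjp1 (ZO-1) and Tjp3 (ZO-3). They were taken by gene symbol from a raw count table of 54532 mouse genes, so the set holds 9 of 54532 genes, and the rule that takes them uses no measured value. The cells came from dissociated dorsal epidermis of C57BL/6 mice at 4 weeks of age, male and female, with no transgene or drug in either group. The NCAM-enriched group was captured on magnetic beads against PSA-NCAM, a glycosylated neural cell adhesion molecule on Merkel cells, and then flow sorted as NCAM+ DAPI- cells (n = 3 libraries). The bulk skin group was sorted as DAPI- (viable) cells with no selection on NCAM (n = 3 libraries). Each library was made by Smart-seq2 from 500 sorted events. No source used here says that the 3 libraries of a group came from separate animals, so p-values measure the spread between libraries.

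Tight junctions seal the space between neighbouring epithelial cells. Claudins and occludin span the membrane and meet their partners on the next cell, junctional adhesion molecules stand beside them, and the ZO scaffolds tie their cytoplasmic tails to actin. In the epidermis functional tight junctions lie in the granular layer, and Cldn1 is known to be required there for the barrier against water loss. Merkel cells, the touch receptor cells of the skin, sit in the basal layer outside that seal.

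Total counts ran from 1343190 to 4481830 per library, so that 1 count was worth 0.216 to 0.773 CPM (the count scaled to the library total, with TMM factors). Across the 13157 genes that passed a filter on low counts, the correlation of log2(CPM + 1) was 0.607 to 0.734 between NCAM-enriched libraries. It was 0.865 to 0.89 between bulk skin libraries. Of 10 Merkel cell markers edgeR called 5 higher in the NCAM-enriched group (test and threshold below), where it called 1.04% of all genes higher. All 10 had a log2 fold change above 0. DESeq2 called all 10 higher, against 5.06% of all genes. The summed level of the 10 markers was 482 to 1674 CPM against 133 to 186 CPM in bulk skin. Suprabasal keratinocyte markers were also higher: of 12, edgeR called 8 higher and DESeq2 11, against the same shares of all genes. All 12 had a log2 fold change above 0. Their summed levels were 14478 to 38599 CPM against 1572 to 1801 CPM, so the libraries are called NCAM-enriched here and not Merkel cells. Hair follicle markers summed to 12098, 6287 and 28839 CPM against 2234 to 2891 CPM. Of these sums Krt17 alone held 6877, 4914 and 17761 CPM against 1106, 980 and 1232 CPM. Only 3 of the 8 hair follicle markers tested had a log2 fold change above 0. Of the 8, edgeR called 1 higher and 1 lower, against 1.04% and 1.55% of all genes. Basal keratinocyte markers overlapped between the groups. T and NK cell markers summed to 37.2 to 71.9 CPM against 3984 to 4313 CPM, Langerhans and myeloid markers to 54.1 to 343 CPM against 10418 to 17940 CPM, and red cell markers to 3.09 to 23.9 CPM against 747 to 1176 CPM. NCAM-enriched library 2 stood apart. Its fibroblast markers summed to 33003 CPM, against 363 and 41.7 CPM in the other NCAM-enriched libraries and 10356 to 18198 CPM in bulk skin, and values without it are given below. The part of these other cells in the results was not tested, and in these bulk samples fewer cells of a type and less RNA per cell cannot be told apart.

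The question put to the members was whether their levels differed between the sorted groups. Cldn4 and Tjp3 carried the largest differences, at 13.7-fold and 10-fold. In both, every NCAM-enriched library lay above every bulk skin library, which held for 11.1% of all genes tested (and the reverse for 19.3%). The summed level of the 9 members was 714.2, 502.2 and 1503 CPM in the NCAM-enriched libraries and 372.3, 378.3 and 491 CPM in bulk skin. The difference of the log2 sums was 0.99 (exact two-sided permutation test, p = 0.1, the smallest that 3 libraries against 3 can give). It was 0.55 (exact permutation p = 0.2) without NCAM-enriched library 3. Cldn1 made up 33.9%, 58% and 43.7% of the sum in the NCAM-enriched libraries and Cldn4 22.8%, 12.8% and 32.4%. As a mean of log2(CPM + 1), which weights the 9 members equally, the difference was 0.7, with overlapping groups and an exact permutation p of 0.4. In edgeR's quasi-likelihood test, adjusted by Benjamini-Hochberg over the 13157 genes tested, 0 of the 9 members passed an adjusted p of 0.05, where 2.59% of all genes did (1.04% higher and 1.55% lower). At an unadjusted p under 0.05 there were 2 members, Cldn4 and Tjp3, both higher, where 18.9% of all genes qualified and 8.73% were higher. These 2 members were also called higher by DESeq2, which called 12.2% of all genes (5.06% higher and 7.1% lower), and by limma-voom, which called 9.12% (2.67% higher, 6.45% lower). With NCAM-enriched library 2 left out, edgeR called both, and 7.2% of all genes (3.09% higher and 4.12% lower). Without the filter on low counts it called both, and 5.42% of all genes (2.76% higher and 2.66% lower). All 9 members passed the filter on low counts. The log2 fold change was above 0 for 7 of the 9 and for 47.7% of all genes tested, and its median was 0.97 over the members and -0.07 over all genes.

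**Figure D1:**
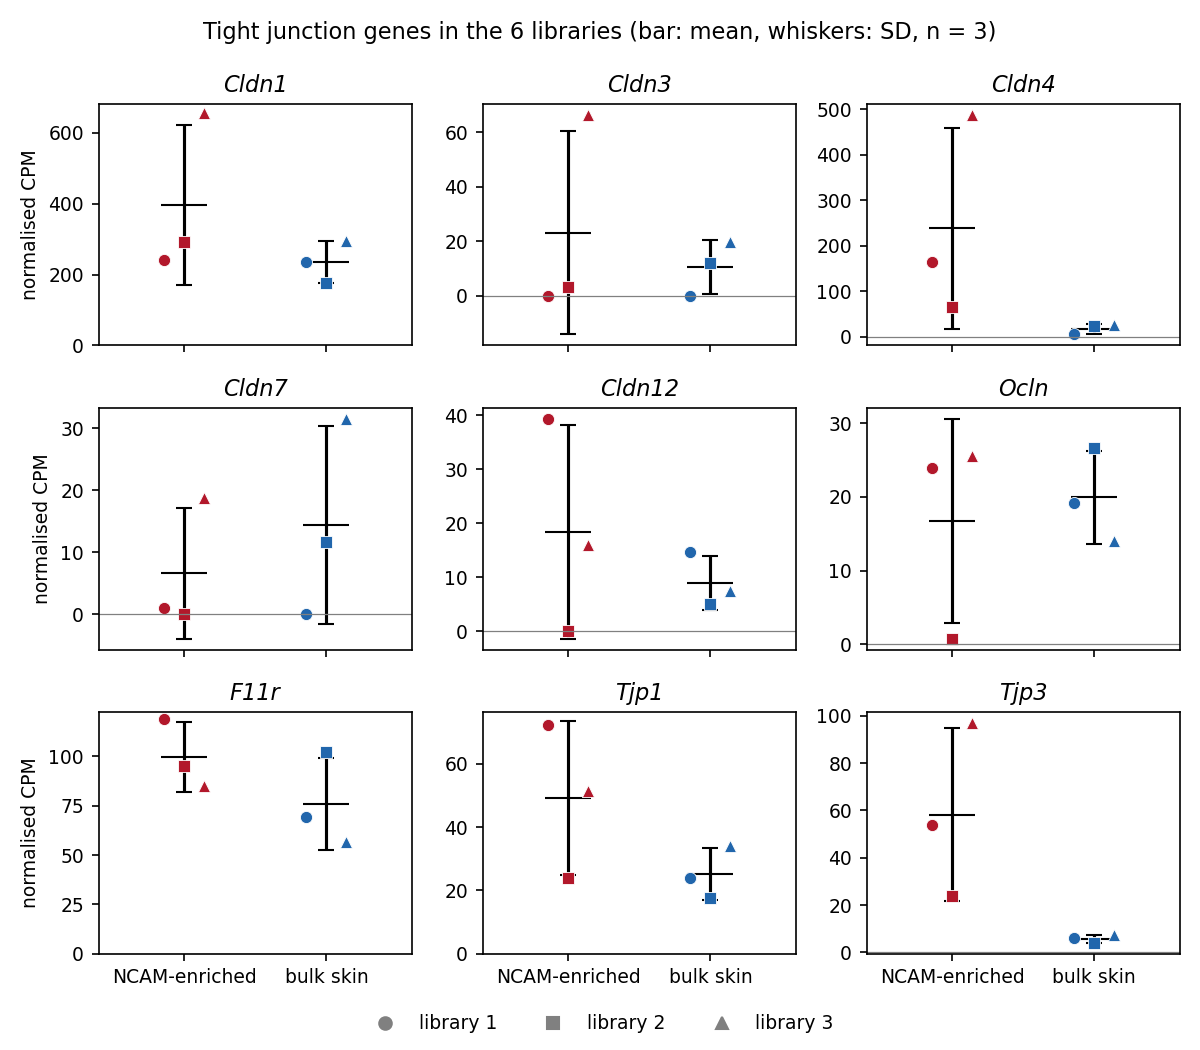
Normalised level of each member (CPM, linear axes scaled to each gene) in the 3 NCAM-enriched (red) and 3 bulk skin (blue) libraries, with a point for each library, a bar at the group mean and whiskers of 1 SD. Cldn4 (64.1 to 487 against 4.66 to 24.9 CPM) and Tjp3 (24.0 to 96.8 against 4.11 to 7.4 CPM) are the members whose groups do not overlap.

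Cldn4, a claudin of the suprabasal epidermis and many simple epithelia, was counted at 163, 64.1 and 487 CPM in the NCAM-enriched libraries and at 4.66, 22.3 and 24.9 CPM in bulk skin. Suprabasal markers, which summed to 38599, 14478 and 20386 CPM in the same NCAM-enriched libraries, were also higher there, and their part in the Cldn4 difference was not tested. The lowest NCAM-enriched library for Cldn4 was library 2, the one with fibroblast RNA, and it still lay above the highest bulk skin library. The means were 238 ± 221 against 17.3 ± 11 CPM (SD, n = 3 and 3), a log2 fold change of 3.78 ± 0.87 (SE, 95% interval 1.80 to 5.76). The edgeR adjusted p was 0.0587, just outside the threshold, while DESeq2 gave an adjusted p of 0.000202 and limma-voom 0.0449. Over 14 alternative fits the adjusted p ran from 1.75e-08 to 0.27, and 5 of the 14 called Cldn4. Without NCAM-enriched library 2 the log2 fold change was 4.21 and edgeR called it, with an adjusted p of 0.0105. Without NCAM-enriched library 3, the highest, the log2 fold change was 2.65 and the edgeR adjusted p 0.0674. Cldn4 is a single-exon gene of 1816 bases on GRCm38 chromosome 5, from 134945119 to 134946934 on the minus strand.

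Cldn1, the claudin of the epidermal barrier, had the most counts of the 9 members in each of the 6 libraries. It had 242, 291 and 657 CPM in the NCAM-enriched libraries against 235, 177 and 296 CPM in bulk skin. Library 3 of the NCAM-enriched group stood above the rest, and the groups overlapped. The log2 fold change was 0.75 ± 0.46 (SE, 95% interval -0.30 to 1.80), with an edgeR adjusted p of 0.435, and it was 0.11 without NCAM-enriched library 3. Cldn1 lies on chromosome 16 from 26356642 to 26371841, minus strand.

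The other 3 claudins were sparse. Cldn3, the neighbour of Cldn4 with 39279 bases between the genes, had 0, 3.09 and 66.4 CPM in the NCAM-enriched libraries and 0, 11.9 and 19.5 CPM in bulk skin. Cldn7, a claudin often found along the lateral membrane, had 1.06, 0 and 18.7 CPM against 0, 11.7 and 31.5 CPM. Cldn12, a claudin whose tail lacks the usual scaffold-binding motif, had 39.3, 0 and 15.9 CPM against 14.6, 4.97 and 7.4 CPM. Each was at 0 counts in at least 1 library, and a count of 0 allows up to 0.649 to 2.32 CPM, by a limit of 3 counts that covers counting error only. NCAM-enriched library 3 held 234 of the 238 Cldn3 counts of its group and 66 of its 68 Cldn7 counts. The intervals of the log2 fold changes were wide, from -3.12 to 5.43 for Cldn3, from -5.34 to 3.18 for Cldn7 and from -2.12 to 4.2 for Cldn12. With this spread between libraries a difference was not detectable. Leaving out NCAM-enriched library 3 turned the Cldn3 log2 fold change from 1.16 to -2.9, leaving out NCAM-enriched library 1 turned that of Cldn12 from 1.04 to -0.13, and leaving out bulk skin library 3 turned that of Cldn7 from -1.08 to 0.2.

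Occludin, the first integral tight junction protein to be described, and F11r, an immunoglobulin-type adhesion receptor, had groups that overlapped. Ocln had 23.9, 0.773 and 25.5 CPM in the NCAM-enriched libraries against 19.2, 26.6 and 14.0 CPM in bulk skin. The low library was again NCAM-enriched library 2, with 1 count, and without it the log2 fold change of -0.24 ± 1.08 (SE, 95% interval -2.69 to 2.21) became 0.3. F11r had 119, 95 and 84.8 CPM against 69.2, 102 and 56.5 CPM, and bulk skin library 2 lay within the NCAM-enriched range. Its log2 fold change was 0.39 ± 0.41 (SE, 95% interval -0.53 to 1.31), with an edgeR adjusted p of 0.669. Ocln lies on chromosome 13 from 100496507 to 100552718, minus strand, and F11r on chromosome 1 from 171437535 to 171464603, plus strand.

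Of the scaffolds, Tjp3 separated the groups and Tjp1 did not. Tjp3, the ZO scaffold most restricted to epithelia, had 53.7, 24.0 and 96.8 CPM in the NCAM-enriched libraries and 5.9, 4.11 and 7.4 CPM in bulk skin. As with Cldn4, suprabasal markers were higher in the same libraries, and their part was not tested. Library 2 was the lowest of its group and still above all bulk skin libraries. The means were 58.1 ± 36.6 against 5.8 ± 1.65 CPM (SD, n = 3 and 3), a log2 fold change of 3.32 ± 0.76 (SE, 95% interval 1.6 to 5.05). The edgeR adjusted p was 0.0576, with 0.000146 by DESeq2 and 0.0436 by limma-voom. Over 14 alternative fits it ran from 0.000146 to 0.285, and 4 of the 14 called Tjp3. Without NCAM-enriched library 2 the log2 fold change was 3.68 and edgeR's adjusted p 0.00736, and without NCAM-enriched library 3 they were 2.68 and 0.0726. Tjp3 lies on chromosome 10 from 81273207 to 81291581, minus strand, and overlaps Apba3 over 1.08% of its exonic length, where reads cannot be assigned without strand.

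Tjp1, the scaffold found at junctions of nearly all epithelia and endothelia, had 72.3, 24.0 and 51.4 CPM against 23.9, 17.7 and 34 CPM. NCAM-enriched library 2 fell within the bulk skin range and the other NCAM-enriched libraries lay above it. The log2 fold change was 0.97 ± 0.63 (SE, 95% interval -0.46 to 2.39), with an edgeR adjusted p of 0.464. In a ratio chosen after the values were seen, Tjp3 had 0.743, 1.0 and 1.88 counts per Tjp1 count in the NCAM-enriched libraries and 0.247, 0.232 and 0.218 in bulk skin. The groups did not overlap, and the bulk skin ratios rested on only 19, 19 and 27 Tjp3 counts. Tjp1 lies on chromosome 7 from 65296165 to 65527781, minus strand.

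**Figure D2:**
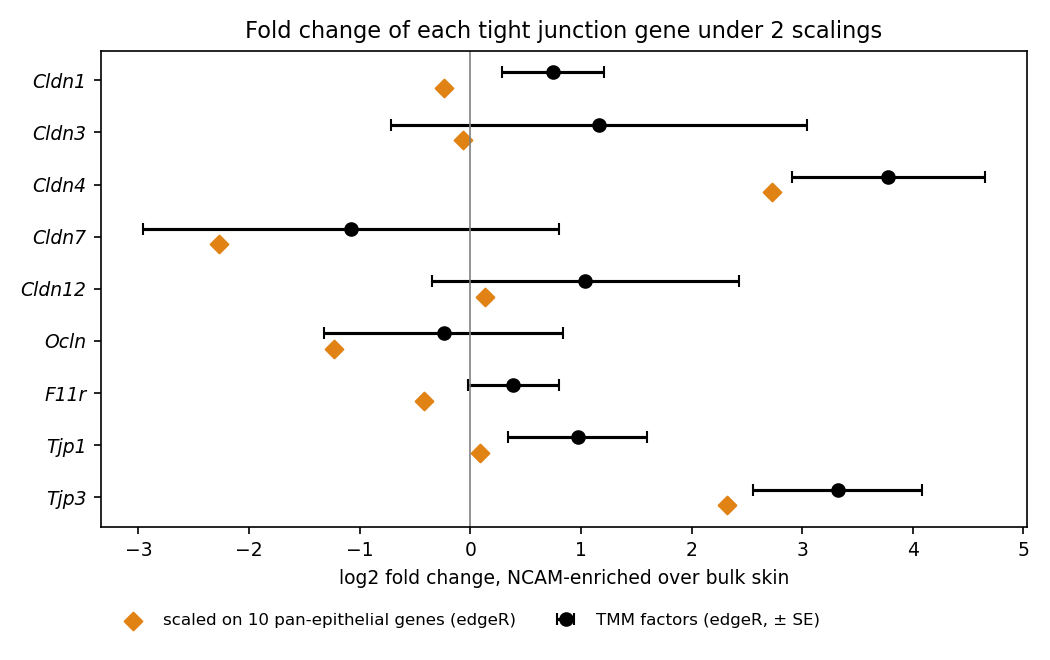
Log2 fold change of each member, NCAM-enriched against bulk skin, from edgeR's quasi-likelihood fit. Black points with whiskers of ± SE use TMM factors, and orange diamonds are scaled on the 10 epithelial genes. The 95% intervals with TMM factors, which are not drawn, lie above 0 for Cldn4 (1.80 to 5.76) and Tjp3 (1.6 to 5.05). They include 0 for the other 7 members.

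Because bulk skin held immune and red cell RNA, the members were also set against 10 genes shared by epithelial cells (Cdh1, Esrp1, Esrp2, Grhl2, Dsp, Jup, Perp, Trp63, Krt5 and Krt14). This reference was not uniform: its log2 fold changes ran from -0.03 (Trp63) to 2.23 (Jup). Dsp was itself called higher by edgeR (2.16, adjusted p = 0.044). The mean log2(CPM + 1) of these genes was 9.53, 9.41 and 10.18 in the NCAM-enriched libraries and 8.69, 8.9 and 8.9 in bulk skin, a difference of 0.88 (exact two-sided permutation test, p = 0.1, the smallest possible). Relative to it, Cldn4 was higher by 2.65 and Tjp3 by 2.06 on the log2 scale, each with no overlap between the groups and an exact permutation p of 0.1, in a family of 9 such tests that cannot go below it. The other 7 members were under 0 on this scale, from -0.02 for Tjp1 to -1.99 for Cldn7, with exact permutation p of 0.2 to 1. When the libraries were scaled on these 10 genes in edgeR, the median of all genes moved from -0.07 to -0.94 and 10.1% of genes were called, 0.76% higher and 9.3% lower. On that scaling Cldn4 had a log2 fold change of 2.73 (adjusted p = 0.0461) and Tjp3 of 2.32 (adjusted p = 0.102). The direction flipped for Cldn1 (-0.24), Cldn3 (-0.07) and F11r (-0.42), none of which passed the test on either scaling.

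Compared per kilobase of exon, so that genes of different length can be ranked, the members were ordered within each group. In the NCAM-enriched libraries the mean level was 131 ± 122 CPM per kb for Cldn4, 82.0 ± 46.8 for Cldn1 and 37.4 ± 6.59 for F11r (SD, n = 3). Below these came Cldn3, Tjp3, Tjp1, Cldn12, Ocln and Cldn7, from 18.4 down to 3.39 CPM per kb. Only Cldn1 and F11r were neighbours whose ranges over the 3 libraries did not overlap. In bulk skin Cldn1 led with 48.7 ± 12.3 CPM per kb, then F11r with 28.5 ± 8.82, then Cldn4 with 9.52 ± 6.07 (SD, n = 3). Cldn3, Cldn7, Ocln, Tjp1, Cldn12 and Tjp3 followed, from 8.3 down to 1.56 CPM per kb, and the gap between F11r and Cldn4 was the only one between neighbours without overlap. Tjp3 was thus the lowest member in bulk skin and the fifth in the NCAM-enriched libraries.

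Cldn4 took a larger part of the claudin total in the NCAM-enriched libraries. By counts per exonic kilobase, Cldn4 made up 59.9%, 36.1% and 57.1% of the claudin total in the NCAM-enriched libraries and 4.71%, 18.7% and 12.7% in bulk skin. The groups did not overlap, and the means differed by 39.0 percentage points (exact two-sided permutation test, p = 0.1, the smallest possible, in a family of 5). Cldn1 made up 33.5%, 61.4% and 28.9% against 89%, 55.9% and 56.5%. Its groups overlapped through NCAM-enriched library 2, and the difference of -25.8 points had an exact permutation p of 0.3. Cldn3, Cldn7 and Cldn12 each stayed at or under 15.0% in every library, with exact permutation p of 0.4 to 0.5. In counts without the correction for length, Cldn4 held 31.2 ± 11.6% against 6.06 ± 3.99% (SD, n = 3 and 3). The ratio within a library, chosen after its values were seen, was 0.671, 0.22 and 0.741 Cldn4 counts per Cldn1 count in the NCAM-enriched libraries against 0.0198, 0.126 and 0.0843 in bulk skin.

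**Figure D3:**
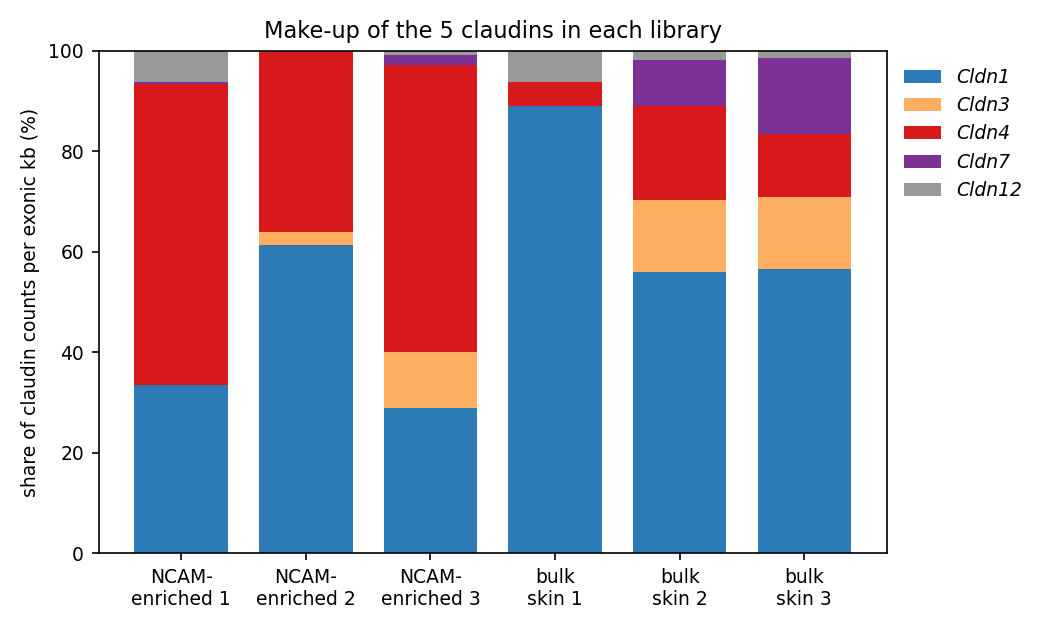
Share of each of the 5 claudins in the claudin total (percent of counts per exonic kilobase), a bar for each library. Cldn4 takes 36.1% to 59.9% of the total in the NCAM-enriched libraries and 4.71% to 18.7% in bulk skin, and Cldn1 takes 28.9% to 61.4% and 55.9% to 89%.

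The start sites of the members were searched for short motifs in RefSeq promoter windows (GRCm38.p6, from 250 bases before to 50 after each start). All 9 members matched by symbol, with 14 windows. Each motif was searched on both strands. The letters CACCTG, read as CAGGTG on the other strand, are an E-box that zinc-finger repressors of the Snail family bind. The others were AACCGGTT for Grainyhead-like factors, GCCNNNGGC for AP-2 factors, GGGNGTGG for Klf factors and TATAAA for the TATA box. CACCTG was found for 6 of the 9 members (Cldn3, Cldn4, Cldn7, Ocln, Tjp3 and F11r) and for 22.6% of all 27025 gene symbols. GCCNNNGGC was found for 5 members (18.5% of all symbols), GGGNGTGG for 5 (19.7%), AACCGGTT for 0 (0.174%) and TATAAA for 0 (15.7%). A match is a description and not a bound site, and the motifs were chosen with these windows in view. The 30 bases around the matches are shown for Cldn4 and Tjp3, the members with the largest differences, and for F11r, which carries the same letters and whose groups overlapped. Capitals mark the match, read 5′ to 3′ on the gene's strand. Distances are to the first base of the match, and a distance after the start counts the start base itself.
Cldn4, chr5:134946931-134946960, minus strand, 14 bases before the start: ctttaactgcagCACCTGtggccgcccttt
Cldn4, chr5:134946906-134946935, minus strand, 12 bases after the start: cctttcttgttgCAGGTGcaggcaggaaag
Tjp3, chr10:81291267-81291296, minus strand, 17 bases before a start: cacaaaccctccCACCTGcaggccggcctc
Tjp3, chr10:81291672-81291701, minus strand, 108 bases before another start: gtcacaaggggtCAGGTGtacagacaggga
F11r, chr1:171437427-171437456, plus strand, 122 bases before the start: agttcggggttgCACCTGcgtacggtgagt

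The level of Snai2, which encodes the Snail-family repressor Slug, was 14.3, 6.18 and 25.8 CPM in the NCAM-enriched libraries and 77.0, 43.9 and 63.1 CPM in bulk skin. The Snai2 groups did not overlap, its log2 fold change was -1.97 ± 0.67 (SE), and the adjusted p was 0.149 by edgeR and 0.0359 by DESeq2. Snai1, which encodes Snail, had 0, 13.1 and 0 CPM against 2.48, 4.11 and 7.68 CPM, with groups that overlapped and a log2 fold change of -0.18 ± 1.79 (SE, edgeR adjusted p = 0.973). Both were named after their values were seen, and a part of either in the levels of the members was not tested.

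The rest of the pathway was read from 4 lists. Of all genes tested, edgeR called 2.59%, DESeq2 12.2% and limma-voom 9.12%, and 18.9% had an unadjusted edgeR p under 0.05. Of 24 other claudin genes in the table, 15 had at least 1 count and 4 passed the filter on low counts, and edgeR called 0 of these 4 (2 at an unadjusted p under 0.05, DESeq2 1, limma-voom 1). Cldn23 had 128, 0 and 131 CPM in the NCAM-enriched libraries against 3.10, 8 and 5.76 CPM, with nothing counted in library 2 and an edgeR adjusted p of 0.172. Cldn8 had 0, 0 and 7.38 CPM against 41.3, 15.3 and 42.2 CPM, all NCAM-enriched libraries lying below bulk skin, with an edgeR adjusted p of 0.236. The most abundant of this list, the claudin-domain gene Cldnd1, had 240, 22.4 and 207 CPM against 329, 248 and 271 CPM and an edgeR adjusted p of 0.577. Cldn5, the claudin of endothelium, was at 0 counts in every NCAM-enriched library and at 8.69, 21.6 and 1.65 CPM in bulk skin, and was not tested. Of the 5 endothelial markers, Cldn5, Cdh5 and Emcn were at 0 counts in the NCAM-enriched libraries, while Pecam1, the most abundant, had 12.2, 10.8 and 13.9 CPM against 16.1, 20.8 and 18.4 CPM.

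Among the other membrane genes 9 of 11 were tested and edgeR called 0 (3 at an unadjusted p under 0.05, DESeq2 1, limma-voom 1), with a median log2 fold change of -0.53. Over all genes these shares were 18.9%, 12.2% and 9.12%, and the median was -0.07. Jam2, a junctional adhesion molecule of vessels, was at 0 counts in the NCAM-enriched libraries and at 19.2, 4.11 and 6.58 CPM in bulk skin. Set against 3 counts for the whole group, it was at least 20.4-fold lower (edgeR adjusted p = 0.0817). Marveld2 (tricellulin, at corners where cells meet) had 39.3, 74.2 and 50.2 CPM against 19.6, 22.3 and 17.3 CPM, with no overlap and an edgeR adjusted p of 0.199. Cxadr, an adhesion receptor and the most abundant of this list, had 149, 143 and 218 CPM against 152, 115 and 155 CPM, and its groups overlapped.

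Of 27 plaque genes 26 were tested and edgeR called 0, with 10 at an unadjusted p under 0.05, where 18.9% of all genes qualified. By DESeq2, 5 were higher and 2 lower, against 5.06% and 7.1% of all genes. By limma-voom 4 were higher and 1 lower, against 2.67% and 6.45% of all genes. The median log2 fold change of the plaque genes was 0.18, and that of all genes -0.07. Ybx3 (ZONAB, which binds the ZO-1 scaffold) had 1090, 746 and 742 CPM against 328, 267 and 283 CPM, with no overlap and an edgeR adjusted p of 0.0597. Sympk (symplekin, also a part of the machinery of mRNA 3′ ends) had 72.3, 151 and 74.1 CPM against 11.8, 29.0 and 20.3 CPM, again with no overlap, and its edgeR adjusted p was 0.067. The paralogues cingulin (Cgn) and paracingulin (Cgnl1), named after their values were seen, lay on opposite sides of 0. Cgn had 46.2, 0 and 166 CPM against 7.45, 10.6 and 2.74 CPM, and Cgnl1 3.19, 0 and 4.54 CPM against 43.2, 29.6 and 32.4 CPM, with edgeR adjusted p of 0.257 and 0.112.

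Of 12 regulators all were tested, and 9 had a log2 fold change above 0, where 47.7% of all genes did. Among them edgeR called 1, Grhl3, against 2.59% of all genes, with 6 at an unadjusted p under 0.05, where 18.9% of all genes qualified. By DESeq2, 4 were higher and 1 lower, against 5.06% and 7.1% of all genes. By limma-voom 2 were higher and 0 lower, against 2.67% and 6.45% of all genes. Grhl3, a Grainyhead-like transcription factor of epidermal barrier formation, rose from 14.6, 20.3 and 24.9 CPM in bulk skin to 81.8, 113 and 150 CPM in the NCAM-enriched libraries. The groups were far apart, with a log2 fold change of 2.52 ± 0.47 (SE) and an edgeR adjusted p of 0.0332. The adjusted p of Grhl3 was 0.244, 0.201 and 0.186 without bulk skin library 1, 2 or 3, and 0.0854 when scaled on the epithelial genes, where its log2 fold change was 1.64. Grhl1, its paralogue, had 357, 150 and 227 CPM against 69.2, 71.1 and 34.3 CPM and an edgeR adjusted p of 0.0575. Klf4, a barrier transcription factor and the most abundant regulator, had 952, 812 and 1580 CPM against 577, 671 and 551 CPM and an edgeR adjusted p of 0.272.

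**Figure D4:**
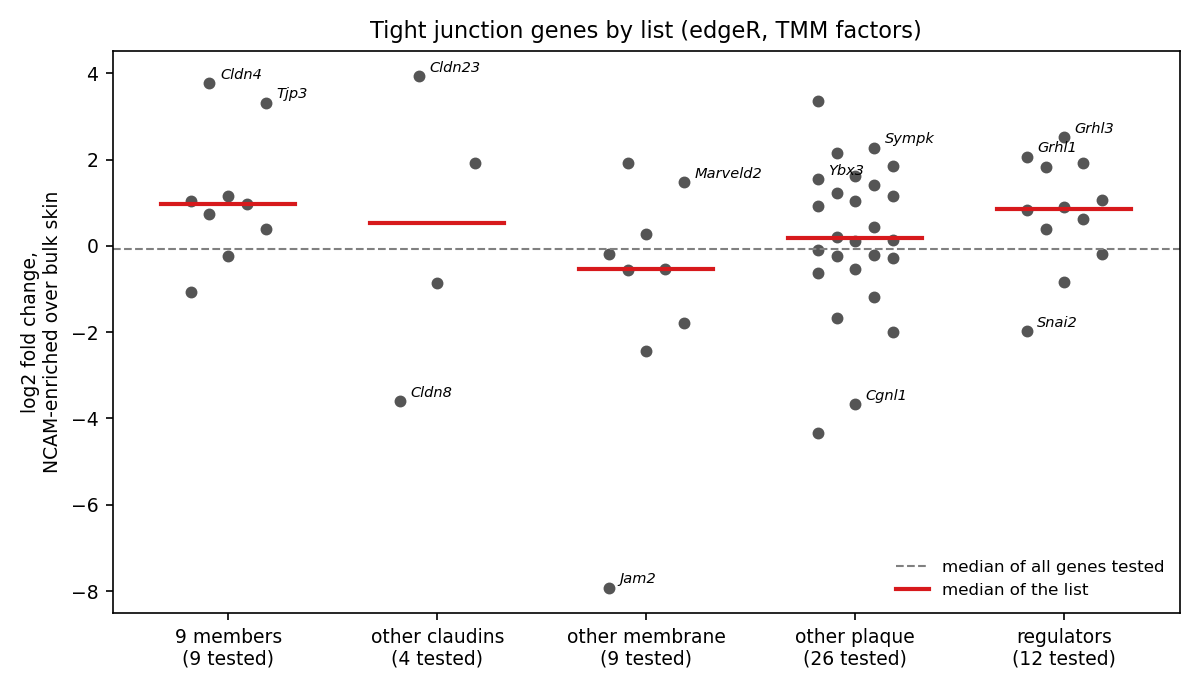
Log2 fold change, NCAM-enriched against bulk skin, of every tested gene of the members and of the 4 lists of other tight junction genes, each point a gene and each red mark a list median. The dashed line is the median of all 13157 genes (-0.07), the member median is 0.97, and the point of Jam2 rests on edgeR's prior count because its NCAM-enriched counts are 0.

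By their profile over the 6 libraries, the genes most like the mean log2(CPM + 1) of the members were Plcd1, Rps6kb2, Unc45a, Ppp2r5b and Nfatc2, with Pearson r of 0.9833 down to 0.9627 among 8628 genes of at least 20 CPM. The member mean was 5.02, 3.66 and 6.25 in the NCAM-enriched libraries and 3.58, 4.44 and 4.81 in bulk skin, so that its ends were set by NCAM-enriched library 3 and, at the bottom, by bulk skin library 1 and NCAM-enriched library 2. These correlations are descriptions over 6 points that share the spread in cell content between libraries.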

How the data were processed

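The deposited table holds raw read counts per gene, which the authors made from single-end Smart-seq2 reads by adapter clipping (bbduk), removal of abundant sequences (bbmap), alignment to GRCm38 with STAR and counting with featureCounts. Which annotation release they counted on, and with which strand option, was not given in the sources used here. The protocol does not mark strand. Coordinates and exonic lengths come from GENCODE M21 (GRCm38), where 54495 of 54532 gene IDs were found.

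Counts were filtered with filterByExpr, scaled by TMM and tested in edgeR 4.0.16 (R 4.3.3) by the quasi-likelihood test on group, NCAM-enriched against bulk skin, with all 6 libraries and Benjamini-Hochberg adjustment over 13157 genes. The threshold for a call was an adjusted p of 0.05. The study used DESeq2 (here 1.42.0), which served as an alternative beside limma-voom (limma 3.58.1), other scalings and filters, a replicate block and leaving out each library. SE is the log2 fold change over the root of F, and the 95% interval uses the t quantile of that fit. The common biological coefficient of variation was 0.744. Single values per library were compared by exact two-sided permutation. Shares, ratios and relative levels used counts or log2(CPM + 1). The script was tested on simulated data.

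The members and lists were chosen with earlier results of these data known. The text names all 9 members and, of each other list, the called genes, the 2 with the smallest p and the most abundant, besides the 5 genes most like the member mean. Cgn, Cgnl1, Snai1, Snai2, Cldn5, Cdh5, Emcn, Cldn14, Cldn6, Cldn18, Cldnd2 and Cldn20 were named after their values were seen. Replicate numbers were not taken as pairs: deviations of same-numbered libraries correlated at 0.0231, 0.000232 and -0.00776.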

Additional observations from a re-analysis of the deposited data

How the results depend on the processing

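The edgeR test of the report called 137 genes higher and 204 lower. DESeq2 called 661 and 928, limma-voom 351 and 849, and edgeR without a filter on low counts 769 and 741. Scaling on the epithelial genes called 1224 lower. Leaving out a library gave 0 to 1099 higher and 13 to 733 lower. No gene was called higher without bulk skin library 1 or 2, where 1125 and 1137 had an unadjusted p under 0.05, and 1 gene was called higher without bulk skin library 3. Of the 9 members, 0 were called in edgeR, 2 with DESeq2, limma-voom or no filter, 1 when scaled on the epithelial genes, and 0 to 2 without a library, the 2 coming without NCAM-enriched library 2. Of the other tight junction genes edgeR called 1 higher and 0 lower, DESeq2 10 and 4, limma-voom 6 and 3, no filter 8 and 2, epithelial scaling 0 and 4, and leaving out a library 0 to 8 and 0 to 4. With RLE factors, upper quartile factors or robust dispersion edgeR likewise called 0 members.

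With a replicate block, 50 genes were called higher and 92 lower, with 0 members and 0 other tight junction genes called higher. The blocked adjusted p was 0.0795 for Cldn4, 0.143 for Tjp3 and 0.0788 for Grhl3. Of the 6 libraries 2 correlated best with the library of the same number.

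Signs turned for values that passed no test. Scaling on the epithelial genes gave log2 fold changes of -0.24 for Cldn1, -0.07 for Cldn3, -0.42 for F11r, -0.64 for Cxadr and -0.04 for Klf4, and limma-voom gave -0.15 for Cldn12. Leaving out a library gave -0.13 to 1.6 for Cldn12, -2.9 to 1.96 for Cldn3, -4.57 to 0.2 for Cldn7, -0.72 to 0.3 for Ocln and -0.01 to 0.37 for Cxadr. For Snai1 it gave -7.02 to 0.39, the former without NCAM-enriched library 2, where the group was at 0 counts and the value rests on the prior count. Relative to the epithelial genes, leaving out a library gave -2.13 to 0.48 for Cldn12, -2.3 to 0.41 for Cldn3 and -0.45 to 0.26 for Tjp1. The Cldn12 share differed by -0.908 points, by 0.0756 in counts, and by -2.85 to 0.634 without a library. The causes were not tested. With 3 libraries a group, a permutation p cannot go below 0.1, and genes near 3 counts in a library are below what this depth resolves.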

Other observations

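Among claudins too sparse to be tested, 3 were counted in the NCAM-enriched libraries and at 0 in every bulk skin library, and all 3 were named after their values were seen. Cldn14, a claudin of the inner ear and kidney, had 2, 40 and 0 counts in the NCAM-enriched libraries, so that library 2, the one with fibroblast RNA, held nearly all of them. Cldn6, a claudin of embryonic epithelia, had 8, 6 and 0 counts. Cldn18, a claudin of lung and stomach, had 0, 2 and 0 counts. None of the 3 was counted in every NCAM-enriched library. The reverse also occurred in this list. Cldn5, Cldnd2 and Cldn20 were not tested and were at 0 in every NCAM-enriched library. In bulk skin Cldn5 had 28, 100 and 6 counts, Cldnd2 0, 5 and 0, and Cldn20 1, 0 and 0.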
